A study of Mus musculus with 4 samples.

Results

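The Notch pathway was examined through 10 of its genes, the receptors Notch1, Notch2 and Notch3, the ligands Jag1, Dll1 and Dll4, and the effectors Hes1, Hey1, Hey2 and Heyl. They were chosen by gene symbol among the 32285 genes of the deposited matrices, and all 10 were found. Their transcripts were counted in single cells of whole noses from mouse embryos at embryonic day 14.5, in 2 control libraries and 2 mutant libraries. The mutants carried Tg(Sox10-cre)1Wdr, a transgene that expresses Cre recombinase under Sox10 control, together with floxed Yap and Taz. Per the series design the mutants had 1 floxed and 1 wild-type Yap allele and 2 floxed Taz alleles. For the controls, the sample labels name the strain C57Bl/6J, whereas the series design describes floxed Yap and Taz without Cre, and this disagreement was not settled. Sox10 is active in the migrating neural crest, so the Cre is expected in crest-derived glia and facial mesenchyme, not in endothelial cells. Which of the cells counted here had recombined was not measured.

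Notch signalling passes between touching cells. A ligand of the Jagged or Delta-like family on one cell binds a Notch receptor on its neighbour, the receptor is cut by ADAM proteases and gamma-secretase, and its freed intracellular part enters the nucleus, where it joins the DNA-binding protein RBPJ and turns on Hes and Hey genes, which encode transcriptional repressors. In vessels the pathway is known for the choice between tip and stalk cells and for the identity of arteries and pericytes, in olfactory epithelium for restraining neurogenesis, and in skin for differentiation of keratinocytes.

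Cells were sorted in the computer into 6 classes by marker genes with a UMI (a tag that marks 1 captured molecule). A class needed at least 3 different markers, and no member of the pathway was used as a marker. Neuronal cells could also enter by at least 2 precursor markers, as 14, 5, 12 and 13 cells of control 1, control 2, mutant 1 and mutant 2 did. Cells that passed both the neuronal and the epithelial gate counted as neuronal. Mesenchymal cells passed no other gate, and cells of other gate pairs were left out unless 1 gate was mesenchymal. Of 13739 retained cells, 12433 (90.5%) fell into a class. In the order control 1, control 2, mutant 1 and mutant 2, which is kept below, there were 63, 32, 33 and 120 endothelial cells, 53, 34, 27 and 43 mural cells (pericytes and smooth muscle), 47, 30, 33 and 24 glial cells, 125, 65, 104 and 90 neuronal cells, 391, 120, 327 and 418 epithelial cells, and 3017, 1922, 2235 and 3080 mesenchymal cells. Levels are CPM, the UMIs of a gene scaled to the same UMI total in every sum, of the summed cells of a class in 1 library. Each class had its own 6 check markers, kept out of the gates, and all 6 were detected in their class. Detection alone separates classes little, since all 6 mural and all 6 glial check markers were also detected in endothelial cells. The neuronal, mural and glial labels were weak. Between 52.2% and 76.9% of the cells of the neuronal gate also carried at least 3 mesenchymal markers. Mesenchymal check markers summed to between 1003 and 2464 CPM there, close to or above the neuronal ones at 1159 to 1614 CPM. Epithelial check markers summed to 341, 81.0, 265 and 452 CPM in neuronal cells. Their part in the neuronal levels of Hes1 and Hey1 was not tested. Of mural cells, 67.9% to 77.8% also passed the mesenchymal gate, and mesenchymal check markers summed to 2315, 1481, 1778 and 3267 CPM there, against mural ones at 1099, 766, 884 and 806 CPM. In glial cells they summed to 1553, 793, 994 and 1160 CPM, against glial ones at 1120, 629, 1055 and 569 CPM, and without co-gated cells they were still above the glial ones in control 2 and mutant 2. Endothelial cells of mutant 2 stood apart, with a median of 5012 UMIs against 12515 to 17015 in the other libraries, and with mesenchymal check markers at 2031 CPM against 169 to 359 CPM. The retained libraries held 35331450, 19767873, 29121739 and 26874057 UMIs, and any pair shared 3 to 5 cell barcodes. Over all cells the targeted Yap1 stood at 65.0, 65.2, 56.4 and 56.0 CPM and Wwtr1 (Taz) at 118, 145, 123 and 132 CPM. In glial cells Yap1, lower in both mutants, was at 53.1, 67.6, 43.7 and 51.8 CPM and Wwtr1, higher in both, at 206, 181, 231 and 280 CPM. Reads from the 3-prime end can count transcripts without the floxed exons, so these levels do not measure the deletion. The protocols name 2 providers of library preparation and sequencing without assigning libraries to them, and batch and genotype cannot be told apart. They speak of 2 noses of each kind, but nothing states that replicate libraries were prepared independently, so p-values measure the spread between libraries, which may be technical.

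Because the effectors are read here as Notch target genes, the stretch before the start site is shown for the 2 searched effectors in which the script found the RBPJ motif more than once, Hey2 among the members and Hes5 among the other effectors. The motif searched was GTGGGAA on either strand, in RefSeq windows (GRCm38.p6) from 250 bases before to 50 bases after each start. Capitals mark it, with TTCCCAC as its form on the opposite strand. The printed Hey2 stretch is chr10:30842781-30843033 on the minus strand and the Hes5 stretch is chr4:154960673-154960922 on the plus strand.
Hey2: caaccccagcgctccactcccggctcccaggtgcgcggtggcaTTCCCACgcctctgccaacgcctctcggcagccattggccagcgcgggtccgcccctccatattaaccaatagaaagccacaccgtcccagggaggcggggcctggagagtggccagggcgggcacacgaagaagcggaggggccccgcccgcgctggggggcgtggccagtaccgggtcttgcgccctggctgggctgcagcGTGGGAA
Hes5: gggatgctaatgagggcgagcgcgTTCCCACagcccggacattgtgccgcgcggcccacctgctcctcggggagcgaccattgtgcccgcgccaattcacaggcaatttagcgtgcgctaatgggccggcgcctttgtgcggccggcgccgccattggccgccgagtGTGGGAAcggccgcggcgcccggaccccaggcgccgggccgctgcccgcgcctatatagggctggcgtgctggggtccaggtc
Each stretch holds 1 copy in either orientation, 196 bases apart in Hey2 and 136 bases apart in Hes5. Of 32851 windows of this length 2097 (6.38%) held the motif and 84 (0.256%) held it at least 2 times. Windows were matched for 7 of the 10 members (8 windows, 2 of them for Dll1), so the effectors Hes1, Hey1 and Heyl were not searched, and those of Notch1, Notch2, Notch3, Jag1, Dll1 and Dll4 did not hold these letters. Hey2 and Hes5 both had their highest mean level in glial cells, as described below, though glial Hey2 overlapped with mural cells. Any link between the motif and these levels was not tested. The matches describe the sequence only.

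The receptors divided the nose between them, as the plot of levels by class shows. Notch3, known as the receptor of pericytes and vascular smooth muscle, was concentrated in mural cells, Notch1 was highest in epithelium and vessels, and Notch2 was spread over the classes and lowest in endothelium. Whether a gene was higher in a class was tested with edgeR over the 24 class sums, as that class against the mean of the other 5 with library as a covariate, and a gene was called when its adjusted p was under 0.05 and the difference at least 2-fold. Of the 10 members 9 had enough counts for this test, and 8 of them were called higher in at least 1 class, as were 34.7% of all genes tested.

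Notch3 (chromosome 17, 32120820 to 32166852, GRCm38) stood at 225, 199, 305 and 197 CPM in mural cells. Every mural library was far above the epithelial ones, the next class in the order, with 41.7 to 50.03 CPM. Neuronal cells followed with 20.8 to 48.9 CPM and mesenchymal cells with 24.1 to 27.7 CPM, and the ranges of these 3 classes overlapped from one to the next. Glial cells had 10.3 to 20.7 CPM and endothelial cells, the neighbours of pericytes, 1.69 to 11.9 CPM. The log2 difference of mural cells from the other classes was 3.50 ± 0.17 (SE), with an edgeR adjusted p of 1.09e-13, whereas Notch3 was called lower in endothelial (-2.31 ± 0.30) and in glial cells (-1.55 ± 0.37).

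Notch1 (chromosome 2, 26457903 to 26516663) had 118, 172, 96.3 and 93.7 CPM in epithelial cells and 97.1, 81.7, 97.8 and 105 CPM in endothelial cells. Mural cells had 107, 71.2, 79.7 and 111 CPM. These 3 classes overlapped, and each was called higher than the rest, with log2 differences of 1.41 ± 0.14, 1.16 ± 0.18 and 1.06 ± 0.22. The mural call lay at the 2-fold limit. It was lost when cells that also passed the mesenchymal gate were left out (0.96 ± 0.44, edgeR adjusted p 0.190), a setting that left 2 to 14 Notch1 UMIs per mural library. Glial cells came next with 64.0 to 82.8 CPM. Neuronal cells with 12.8 to 35.4 CPM and mesenchymal cells with 9.16 to 13.0 CPM were below all libraries of the other classes, and Notch1 was called lower in both (-1.46 ± 0.21 and -2.66 ± 0.17).

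Notch2 (chromosome 3, 98013527 to 98150361) was highest on average where Notch1 was lowest, with 124, 159, 125 and 126 CPM in mesenchymal cells, where Notch1 was lowest. Glial cells had 88.9 to 161 CPM, neuronal cells 93.4 to 120 CPM, epithelial cells 81.4 to 85.4 CPM and mural cells 37.0 to 101 CPM. Endothelial cells were last, at 20.9, 42.6, 3.37 and 44.8 CPM. The low endothelial value of mutant 1 rests on 2 UMIs. Without the cells that also passed the mesenchymal gate, Notch2 passed as higher in glial (1.11 ± 0.28) and mesenchymal cells (1.09 ± 0.19). With all gated cells Notch2 was called higher in no class and lower in endothelial cells, by -1.74 ± 0.26 on the log2 scale (edgeR adjusted p 7.72e-06).

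**Figure D1:**
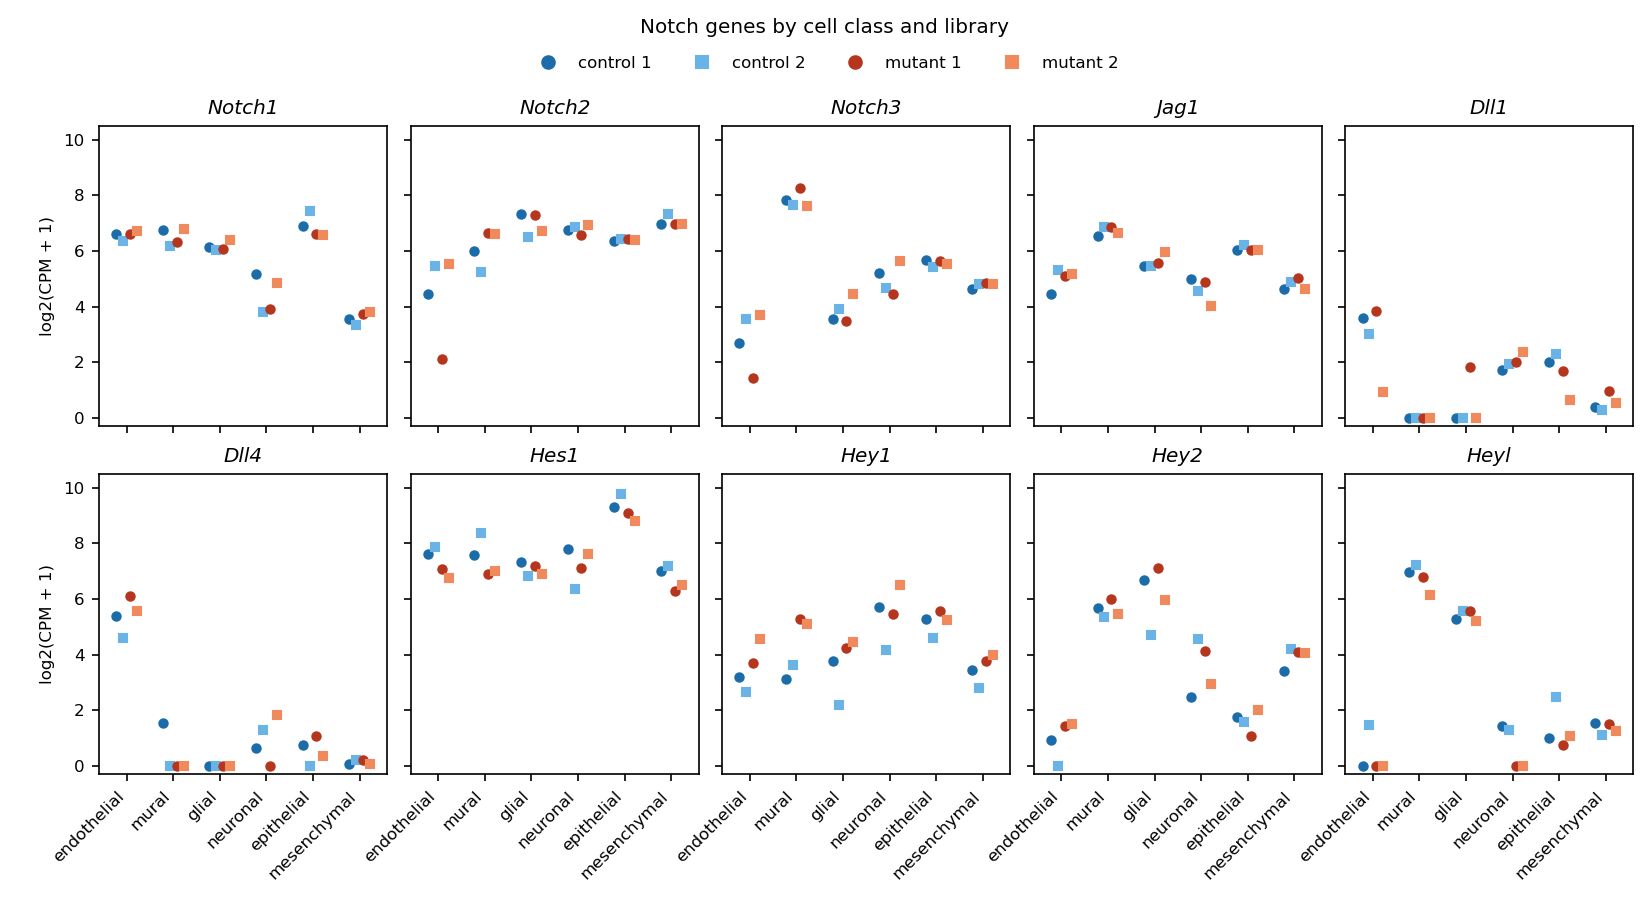
Levels of the 10 Notch genes in 6 cell classes, 1 point per library, on a log2(CPM + 1) axis shared by all panels (blue, controls; red and orange, mutants). Dll4 rises far above the baseline only in endothelial cells, Notch3 stands out in mural cells, and Heyl in mural and glial cells. The 2 groups of libraries lie close together beside these differences between classes.

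Among the ligands, Dll4 was nearly confined to endothelial cells, while Jag1 was highest in mural cells but present in every class. Dll4 (chromosome 2, 119325784 to 119335962), the Delta-like ligand of arterial and tip endothelial cells, had 40.8, 23.1, 67.4 and 46.6 CPM in endothelial cells. No library of another class reached more than 2.53 CPM. Glial cells had no Dll4 UMI, which allows up to 2.25 CPM over the 4 libraries. The difference of endothelial cells from the other classes was 7.45 ± 0.39 on the log2 scale (edgeR adjusted p 1.22e-12), a value that depends on the prior count because the other classes were near 0. Cells with 2500 or more UMIs were thinned to that depth, and 5, 2, 2 and 35 shallower endothelial cells were left out. Dll4 was found in 12.1%, 6.67%, 19.4% and 7.06% of the thinned endothelial cells. At full depth it was found in 36.5%, 25.0%, 36.4% and 24.2% of all endothelial cells. In macrophages, taken as the class that should lack it, it was found in 0 of 74, 53, 45 and 79 thinned cells, which allows shares of up to 4.05%, 5.66%, 6.67% and 3.80%.

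Jag1 (chromosome 2, 137081456 to 137116644), the Jagged ligand through which vascular smooth muscle and many epithelia signal, had 91.4, 117, 114 and 98.6 CPM in mural cells. That was above every library of the other classes, and the log2 difference was 1.56 ± 0.15 (edgeR adjusted p 1.43e-08). Epithelial cells followed with 63.9 to 73.6 CPM, glial cells with 42.5 to 62.1 CPM, endothelial cells with 20.9 to 39.1 CPM, mesenchymal cells with 23.7 to 31.6 CPM and neuronal cells with 15.2 to 30.9 CPM. The last 3 overlapped from one to the next, and Jag1 was called lower in neuronal cells (-1.06 ± 0.15).

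Dll1 (chromosome 17, 15367354 to 15376872), a ligand of neural and muscle progenitors, was near the limit of detection. It rested on 114 UMIs over the 6 classes together and did not enter the class test. Endothelial cells had 12, 4, 8 and 1 UMIs, or 10.9, 7.10, 13.5 and 0.915 CPM. Epithelial cells had 0.548 to 3.91 CPM, neuronal cells 2.25 to 4.21 CPM and mesenchymal cells 0.211 to 0.956 CPM. Glial cells had 1 UMI, in mutant 1. No Dll1 UMI was found in mural cells, which allows up to 1.90 CPM over the 4 libraries.

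Of the effectors, Hes1 was present in every class and highest in epithelium. Hey1 was highest in neuronal and epithelial cells, and Hey2 and Heyl in glial and mural cells. Endothelial cells, which had Notch1, Notch4 and Dll4, had almost no Hey2 or Heyl.

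Heyl (chromosome 4, 123233556 to 123249875), a Hey-family repressor known from vascular smooth muscle, had 124, 148, 111 and 69.8 CPM in mural cells and 38.2, 46.2, 46.2 and 36.2 CPM in glial cells. No library of the other 4 classes exceeded 4.56 CPM, and in endothelial cells 1 UMI was found in all. Both calls were large, at 5.91 ± 0.28 for mural cells and 4.12 ± 0.39 for glial cells (edgeR adjusted p 1.10e-13 and 1.97e-08). With the cells of the mesenchymal gate left out they were 8.07 ± 0.51 and 5.79 ± 0.55. Thinned shares of cells with a Heyl UMI were 26.4%, 26.5%, 19.2% and 9.30% of mural cells and 10.6%, 13.3%, 18.2% and 4.35% of glial cells, against 0 of 74, 53, 45 and 79 macrophages.

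Hey2 (chromosome 10, 30832359 to 30842801), known from arteries and heart, had 102, 24.9, 136 and 62.1 CPM in glial cells and 49.5, 39.9, 62.4 and 43.3 CPM in mural cells. The 2 classes overlapped, and both were called higher, by 3.54 ± 0.35 and 2.63 ± 0.39 (edgeR adjusted p 3.55e-08 and 2.05e-05). The low glial library, control 2, had 7 UMIs. Mesenchymal cells had 9.55 to 17.6 CPM and neuronal cells 4.50 to 22.7 CPM. Without the cells that also passed the mesenchymal gate, neuronal Hey2 was 1.90, 0, 1.65 and 0 CPM. Endothelial cells had 0 to 1.83 CPM, a level of 4 UMIs over all libraries, and epithelial cells 1.11 to 3.02 CPM, and Hey2 was called lower in both (-3.67 ± 0.72 and -2.82 ± 0.57).

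Hes1 (chromosome 16, 30064384 to 30067796), a repressor that keeps progenitors undifferentiated, had 634, 872, 548 and 451 CPM in epithelial cells. Every epithelial library was above every library of the other classes, and the log2 difference was 2.05 ± 0.15 (edgeR adjusted p 7.71e-11). The order below was mural with 118 to 330 CPM, endothelial with 106 to 231 CPM, neuronal with 81.0 to 221 CPM, glial with 114 to 159 CPM and mesenchymal with 77.6 to 145 CPM, and neighbours in it all overlapped. Thinned to 2500 UMIs, 67.9%, 71.6%, 57.4% and 57.0% of epithelial cells had a Hes1 UMI, against 14.9%, 5.66%, 11.1% and 3.80% of macrophages.

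Hey1 (chromosome 3, 8663359 to 8667256) had 51.8, 17.1, 43.0 and 90.1 CPM in neuronal cells and 37.5, 23.5, 46.5 and 37.3 CPM in epithelial cells. Both were called higher, by 1.44 ± 0.19 and 1.02 ± 0.17 (edgeR adjusted p 1.76e-06 and 2.53e-05). Without the mesenchymal co-gated cells the neuronal levels were 74.9, 36.9, 67.6 and 129 CPM and the difference was 2.10 ± 0.21. Epithelial check markers summed to 511, 240, 471 and 657 CPM in these neuronal cells, and their part in neuronal Hey1 was not tested. The epithelial difference was then 0.99 ± 0.19, just short of 2-fold. Leaving out 1 library moved the epithelial difference between 0.93 and 1.31, so this call, too, lay at the limit. Mural cells had 7.62 to 38.1 CPM, glial cells 3.56 to 20.7 CPM, endothelial cells 5.33 to 22.9 CPM and mesenchymal cells 5.92 to 15.0 CPM.

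Counted by class, 5 of the 9 members tested were called higher in mural cells, where 6.99% of all genes tested were. Epithelial cells had 3 members (9.66% of all genes), endothelial cells 2 (9.95%), glial cells 2 (6.47%), neuronal cells 1 (10.9%) and mesenchymal cells 0 (9.23%). Lower calls numbered 4 in endothelial cells, where 12% of genes were lower, 3 in neuronal cells (2.96%), 2 each in epithelial (9.96%) and mesenchymal cells (3.45%), 1 in glial cells (4.6%) and 0 in mural cells (3.08%). The mural and glial sets share Hey2 and Heyl. The heat map of class differences shows these calls side by side.

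**Figure D2:**
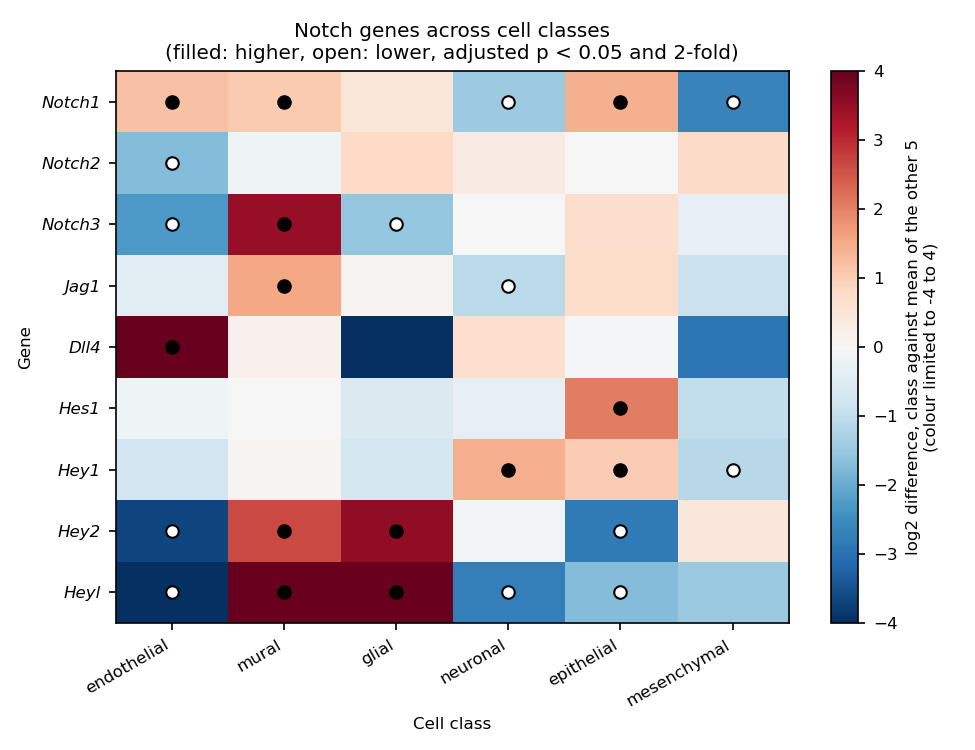
Heat map of the log2 difference of each cell class (columns) from the mean of the other 5, for the 9 Notch genes tested (rows), with colours limited to -4 to 4. Filled circles mark the 13 higher calls, 5 of them in mural cells, and open circles the 12 lower calls.

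Within the epithelium Hey1 and Notch1 differed between basal cells (at least 2 of Krt5, Krt14, Krt15 and Trp63) and simple epithelial cells. This test was added after the levels had been seen, with library as a covariate, and 11.1% of 10731 genes differed at an adjusted p under 0.05 and at least 2-fold. Of the 6 members with enough counts 2 did. Hey1 had 102, 92.1, 110 and 106 CPM in simple cells and 11.6, 11.5, 11.7 and 8.56 CPM in basal cells. That is a log2 difference of 3.22 ± 0.15 (edgeR adjusted p 9.16e-07), and all 4 libraries showed it. Notch1 went the other way, with 142, 196, 123 and 122 CPM in basal and 58.9, 35.1, 48.0 and 26.0 CPM in simple cells (-1.66 ± 0.18, edgeR adjusted p 1.01e-04). Hes1 (0.55 ± 0.10) and Notch2 (0.58 ± 0.11) were higher in simple cells and Jag1 (-0.48 ± 0.14) in basal cells, each past the adjusted threshold but by less than 2-fold, and the Jag1 call was lost when a library was left out (largest edgeR adjusted p 0.153). Notch3 did not pass (0.29 ± 0.14, edgeR adjusted p 0.174), and the other 4 members had too few counts. Of the 40 other pathway genes 29 were tested and 5 passed at 2-fold. The ligand Jag2 (-1.56 ± 0.21), the Notch modifier Lfng (-1.21 ± 0.35) and the non-canonical ligand Dlk2 (-1.70 ± 0.30) were higher in basal cells, and Hes6 (1.77 ± 0.15) and Psen2 (1.41 ± 0.28) in simple cells. Nrarp (-0.75 ± 0.15, edgeR adjusted p 0.00555) was higher in basal cells by less than 2-fold. The receptor Notch1 and the effector Hey1 thus differed in opposite directions between basal cells and the rest of the epithelial gate.

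The 40 other genes of the pathway came from a list of receptors and ligands, Hes genes, glycosyltransferases, proteases, nuclear partners and trafficking genes. Of these 34 had enough counts for the class test, and 18 were called higher in at least 1 class, beside 34.7% of all genes. Endothelial cells had 6, among them Mfng, a fringe enzyme that adds sugars to Notch, at 88.9, 71.0, 115 and 99.7 CPM (7.95 ± 0.24). Notch4, the endothelial receptor, had 41.7, 23.1, 52.3 and 42.1 CPM there (4.03 ± 0.26), and the ligand Jag2 had 27.2, 14.2, 33.7 and 23.8 CPM (2.85 ± 0.27). Mfng was also called higher in neuronal cells at 17.1 to 30.4 CPM (5.39 ± 0.36), and Notch4 did not exceed 12.0 CPM outside endothelium. Jag2 was also called higher in epithelial (2.84 ± 0.21) and neuronal cells (2.22 ± 0.27).

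Nrarp, a target gene whose product limits Notch signalling, was called higher in endothelial, mural and epithelial cells, where Notch1 was called too. It had 80.7, 47.9, 67.4 and 47.6 CPM in endothelial cells (2.45 ± 0.24), 47.6, 68.4, 55.5 and 77.0 CPM in mural cells (2.38 ± 0.31) and 48.3, 85.4, 37.0 and 33.2 CPM in epithelial cells (1.89 ± 0.20). In mural cells Dlk1, a non-canonical ligand of progenitor cells, had 789, 869, 1674 and 1552 CPM (3.62 ± 0.26).

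Hes5, the effector of neural progenitors and glia, was the leading pathway gene of glial cells, at 65.9, 49.8, 30.8 and 20.7 CPM (4.76 ± 0.41, edgeR adjusted p 3.33e-09). Glial cells thus carried Hes5, Hey2 and Heyl. The Notch antagonist Numb (1.11 ± 0.12) and the trafficking gene Dtx4 (1.77 ± 0.31) were also called higher in them. In neuronal cells Hes6, a Hes protein that favours neurogenesis, was called higher at 356, 364, 304 and 390 CPM (3.51 ± 0.12). Hes5 was called higher in neuronal cells as well (1.42 ± 0.45, edgeR adjusted p 0.0168).

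**Figure D3:**
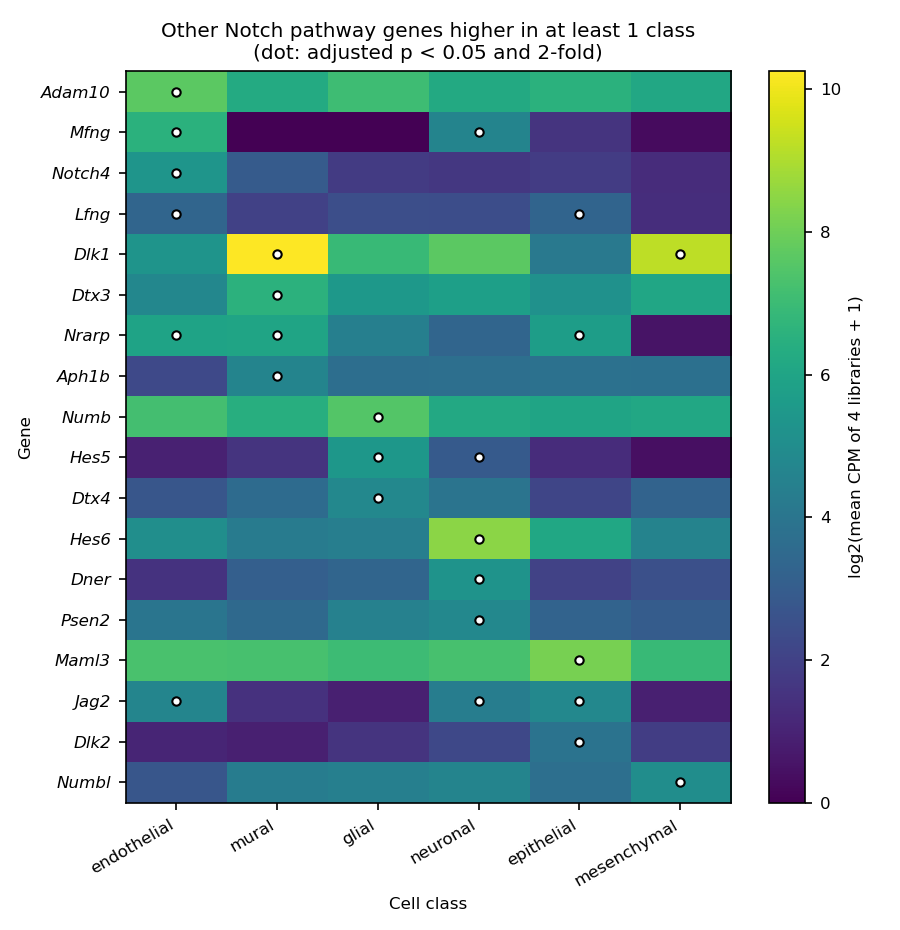
Heat map of the mean level over 4 libraries, as log2(CPM + 1), of the 18 other Notch pathway genes called higher in at least 1 cell class (dots). Mfng and Notch4 are brightest in endothelial cells, Dlk1 in mural and mesenchymal cells, Hes5 in glial cells and Hes6 in neuronal cells.

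The genes whose pattern over the 24 class sums was most like that of a member were found by Pearson's r of log2(CPM + 1) among 15241 genes, as a description, since classes of 1 library share its depth. Nrarp was nearest to Notch1 (r 0.92). Tal1, a vascular and blood transcription factor, was nearest to Dll4 (r 0.98), and the gate marker Egfl7 was among its nearest 3 (r 0.97). Cox4i2, itself a mural check marker, was nearest to Notch3 (r 0.92). Lgi1 (r 0.94) and Des (r 0.93) were nearest to Heyl, Itgb3 (r 0.95) and Serpine2 (r 0.94) to Hey2, Aldh3b2 (r 0.90) and Krt16 (r 0.86) to Hes1, and Epb41l3 (r 0.96) to Notch2. Zfp467 (r 0.87) led for Hey1, Vdac1 (r 0.85) for Jag1 and Wipf3 (r 0.83) for Dll1. Among members, Hey2 with Heyl had the highest r (0.77) and Notch2 with Dll4 the lowest (-0.79).

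Mutants were then compared with controls within each class by edgeR. No member passed an adjusted p of 0.05 in any class or over all cells. The background was also low, at 0.0591% of genes called in endothelial cells, 0.669% in mural cells and 0% in glial, neuronal, epithelial, mesenchymal and all cells. At an unadjusted p under 0.05 there was 1 of 10 members tested over all cells (4.88% of all genes), 1 of 5 in endothelial cells (5.45%), 4 of 8 in mural cells (12.1%), 0 of 6 in glial cells (4.64%), 0 of 7 in neuronal cells (2.28%), 2 of 7 in epithelial cells (4.6%) and 2 of 8 in mesenchymal cells (7.17%). Both mutants were above both controls for 3 of these members over all cells (24.9% of all genes), 2 in endothelial (20.1%), 2 in mural (24.4%), 1 in glial (22.1%), 0 in neuronal (17.5%), 0 in epithelial (22.3%) and 2 in mesenchymal cells (26.3%). Both were below for 2 over all cells (13%), 1 in endothelial (15.1%), 2 in mural (18.1%), 0 in glial (13.9%), 0 in neuronal (13%), 3 in epithelial (16%) and 1 in mesenchymal cells (14%). Hes1 was lower in both mutant libraries than in both controls in 4 of the 6 classes, and Hey1 was higher in both in 4. Of 4946 genes tested in all classes 3.32% were lower in both mutants in 4 or more, and the classes of a library are not independent. The share higher in both mutants in 4 or more classes was not counted. Hey1 had too few counts for the test in endothelial and glial cells and is not among these genes.

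Over all cells Hes1 stood at 229, 220, 163 and 148 CPM, a log2 difference of -0.57 ± 0.09 (SE, 2 against 2 libraries). The unadjusted p was 9.60e-04, which placed Hes1 16th of 18080 genes, and the edgeR adjusted p was 0.909. The mutant libraries did not overlap the controls, as was the case for 13% of genes.

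In mesenchymal cells, the class with the most counts, Hes1 had 127, 145, 77.6 and 89.5 CPM, from 2868, 2059, 1542 and 1612 UMIs. The log2 difference was -0.75 ± 0.11 (edgeR p 2.22e-04, adjusted p 0.257), 14th of 16186 genes, and 14% of genes had both mutants below both controls. It held in bone-lineage cells (153, 133, 90.4 and 101 CPM) and in the remaining mesenchyme (122, 142, 73.9 and 86.7 CPM), while cartilage cells overlapped at 106, 251, 146 and 105 CPM.

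In epithelial cells the levels were 634, 872, 548 and 451 CPM (-0.63 ± 0.18, edgeR p 0.0108, adjusted p 0.938), and 16% of genes were lower in both mutants. Basal cells had 606, 761, 474 and 379 CPM and simple cells 704, 1505, 681 and 621 CPM, without overlap between the groups in either. In endothelial cells Hes1 had 194, 231, 133 and 106 CPM (-0.87 ± 0.22, edgeR p 0.00229, adjusted p 0.515), where 15.1% of genes were lower in both. Without the shallow mutant 2 the endothelial difference was -0.74. In mural cells it had 191, 330, 118 and 127 CPM (-1.09 ± 0.28, edgeR p 0.00230, adjusted p 0.117), where 18.1% of genes were lower in both. Without the mural cells that also passed the mesenchymal gate, the groups overlapped at 155, 305, 231 and 80.9 CPM, from 20, 21, 10 and 7 UMIs. Skeletal muscle cells, a gate of 25, 16, 12 and 9 cells that was not tested, had 252, 262, 118 and 134 CPM. In macrophages, also not tested, thinned shares of cells with a Hes1 UMI overlapped between the groups, at 14.9%, 5.66%, 11.1% and 3.80%.

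Glial and neuronal cells did not share this. Hes1 had 159, 114, 146 and 119 CPM in glia (-0.10 ± 0.28) and 221, 81.0, 139 and 195 CPM in neuronal cells (0.07 ± 0.43), and the groups overlapped in both. Tests of the difference itself, added after these values were seen, did not pass for any of the 8 pairs of a lower class with glia or neurons. Their unadjusted p lay between 0.0406 and 0.227 and the smallest edgeR adjusted p was 0.707, so the classes were not shown to differ.

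The Hes1 call depended on the analysis. DESeq2 called it over all cells (adjusted p 3.24e-04) and in mesenchymal cells (adjusted p 3.94e-05), where it called 30 and 49 genes, and edgeR without a filter on low counts called it in mesenchymal, epithelial and mural cells, where 552, 313 and 275 genes passed. Hes1 was also called in some fits without 1 library, in which more genes passed than in the main fit. Without control 1 its difference was -1.46 in mural, -0.88 in epithelial and -0.84 in mesenchymal cells. It was -0.65 in mesenchymal cells without control 2 and -1.16 in mural cells without mutant 2. With the replicate number as a block the mural call passed as well (edgeR adjusted p 0.0491). The levels of 8 immediate early genes, which cell dissociation is known to induce, were read beside Hes1, a list chosen after Hes1 was seen. Fosb was lower in both mutants in mesenchymal, epithelial and endothelial cells and over all cells, Egr1 in epithelial and over all cells, and Dusp1 in endothelial, mural and glial cells. In all, 1 of 8 was lower in mesenchymal cells (14% of all genes), 3 in epithelial (16%), 2 in endothelial (15.1%) and 1 in mural cells (18.1%). Jun and Junb were higher in both mutants in endothelial (20.1% of all genes) and mural cells (24.4%). In glial cells 1 was lower (13.9%) and 2 were higher (22.1%) in both mutants. In neuronal cells 0 were lower (13%) and 4 higher (17.5%). Their summed level over all cells was 2110, 2574, 1881 and 2435 CPM, which overlapped between the groups, and their part in the Hes1 result was not tested.

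**Figure D4:**
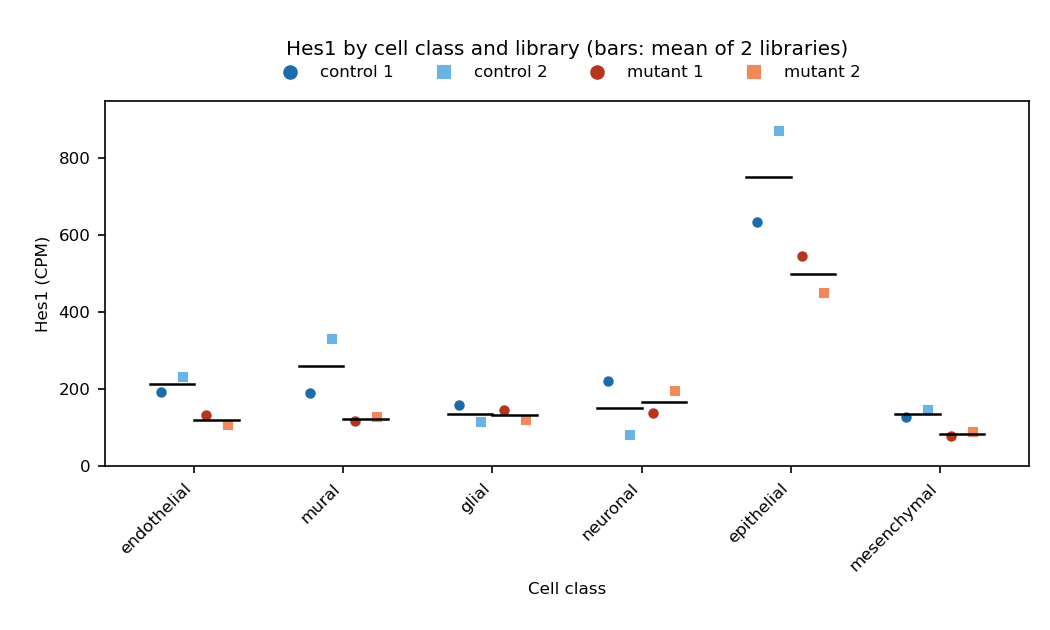
Hes1 level in CPM in each cell class, 1 point per library, with horizontal bars at the mean of the 2 libraries of a group. Both mutant points lie below both control points in endothelial, mural, epithelial and mesenchymal cells, and the groups overlap in glial and neuronal cells.

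Hey1 leaned the other way. It was higher in both mutants in endothelial (8.16, 5.33, 11.8 and 22.9 CPM), mural (7.62, 11.4, 38.1 and 33.7 CPM), glial (12.7, 3.56, 18.0 and 20.7 CPM) and mesenchymal cells (9.91, 5.92, 12.8 and 15.0 CPM). The share of genes higher in both mutants was 20.1%, 24.4%, 22.1% and 26.3% in these classes. The mural difference of 1.88 ± 0.58 (edgeR p 0.00665, adjusted p 0.190) rested on 4, 4, 11 and 14 UMIs, and the mesenchymal one of 0.74 ± 0.23 (edgeR p 0.0150, adjusted p 0.604) on 223, 84, 254 and 270. Leaving out 1 library moved the mesenchymal difference between 0.44 and 1.19, with the larger value without control 1. Endothelial and glial Hey1 had too few counts to be tested.

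Notch1 in epithelial cells was lower in both mutants, at 118, 172, 96.3 and 93.7 CPM (-0.63 ± 0.20, edgeR p 0.0153, adjusted p 0.938). The difference without control 1 was -0.93 and without control 2 it was -0.33. Basal cells had 142, 196, 123 and 122 CPM, without overlap, while simple cells overlapped at 58.9, 35.1, 48.0 and 26.0 CPM. Epithelial Dll1 was also lower in both mutants, from 18, 6, 10 and 2 UMIs (-1.21 ± 0.67, edgeR p 0.112, adjusted p 0.938). The target Nrarp was also lower in both mutants in epithelium, at 48.3, 85.4, 37.0 and 33.2 CPM (-0.90 ± 0.28, edgeR p 0.0152, adjusted p 0.938). Of all genes tested in epithelial cells 16% were lower in both mutants.

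In mural cells 4 of 8 members tested had an unadjusted p under 0.05, against 12.1% of genes there. Beside Hes1 and Hey1 these were Notch2, at 62.9, 37.0, 101 and 96.2 CPM (0.88 ± 0.32, edgeR p 0.0180, adjusted p 0.283), and Heyl, at 124, 148, 111 and 69.8 CPM (-0.65 ± 0.29, edgeR p 0.0463, adjusted p 0.396). Without co-gated cells Notch2 overlapped at 46.4, 29.0, 23.1 and 116 CPM and Hey1 at 7.73, 14.5, 0 and 34.7 CPM, from 1 to 10 and 0 to 3 UMIs, while Heyl did not (209, 276, 139 and 116 CPM). Notch3 (0.18 ± 0.24) and Jag1 (0.00 ± 0.26) overlapped between the groups. The 5 smooth muscle genes, among them the mural gate marker Myh11, summed to 2635, 1273, 4184 and 3854 CPM in the same cells, without overlap between the groups. Mesenchymal check markers overlapped. Their part in the mural values was not tested. The self-test on simulated counts recovered 17% of 2-fold and 72% of 4-fold changes in mural cells.

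Endothelial Dll4 was higher in both mutants (0.68 ± 0.33, edgeR p 0.0652, adjusted p 0.928), and the difference stood at 1.26 without control 1 and 0.38 without control 2. Without mutant 2, endothelial Notch2 stood at -3.16, which rests on the 2 UMIs of mutant 1. The remaining members differed by less than their spread, with Notch1 at 0.14 ± 0.23 in endothelial cells, Jag1 at 0.24 ± 0.36 and Notch2 at -0.14 ± 0.66. Median changes over the members tested ran from -0.10 in epithelial to 0.14 in endothelial cells, beside medians of -0.01 to 0.01 over all genes. In glial cells none of 6 members tested had an unadjusted p under 0.05, where 4.64% of genes did. Glial Hey2 (0.56 ± 0.54) depended on the libraries, at 2.01 without control 1, 0.01 without control 2 and -0.25 without mutant 1. The plot of changes by class shows all members with their errors.

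**Figure D5:**
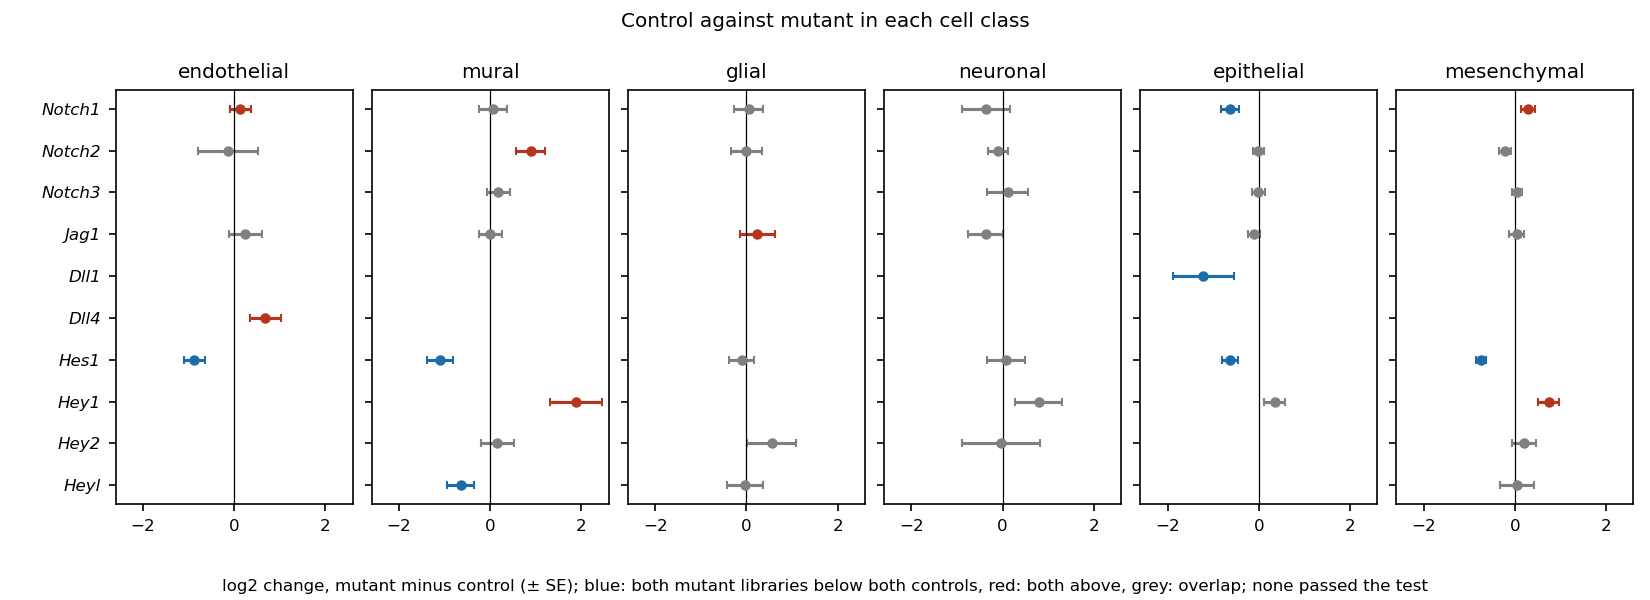
Log2 change from control to mutant with its standard error for each Notch gene that had enough counts, in 6 cell classes. Blue marks genes with both mutant libraries below both controls, which Hes1 shows in 4 classes, red marks genes with both above, and grey marks overlap. No gene shown passed the adjusted threshold.

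Of the 40 other pathway genes 1 passed, Dlk1 in mural cells, at 789, 869, 1674 and 1552 CPM (0.92 ± 0.15, edgeR adjusted p 0.0241), and it was the only one of 17 tested there. No other pathway gene passed among the 26 tested in endothelial, 16 in glial, 33 in neuronal, 34 in epithelial, 37 in mesenchymal and 40 over all cells. Glial Hes5 was lower in both mutants, at 65.9, 49.8, 30.8 and 20.7 CPM from 31, 14, 12 and 4 UMIs (-1.17 ± 0.42, edgeR p 0.0214, adjusted p 0.944). In glial cells 13.9% of genes were lower in both mutants. In neuronal cells Psen2, a gamma-secretase subunit, was at 16.3, 11.4, 35.6 and 42.1 CPM (1.38 ± 0.32, edgeR p 0.00380, adjusted p 1.00).

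Genes that Notch is known to govern in vessels were read from lists of arterial and tip, venous, and smooth muscle genes. None of the 9 arterial and tip genes passed in endothelial cells, and their median change was 0.58. Esm1, a tip cell gene, had 8.16, 8.88, 86.0 and 19.2 CPM (2.46 ± 0.67, edgeR p 0.00344, adjusted p 0.515), which rested largely on mutant 1. Gja4, an arterial connexin, had 128, 56.8, 184 and 188 CPM (0.90 ± 0.31, edgeR p 0.0136, adjusted p 0.824). Nrp2, a receptor of veins and lymphatics, had 374, 635, 327 and 264 CPM (-0.80 ± 0.26, edgeR p 0.00972, adjusted p 0.698). In mural cells all 4 smooth muscle genes tested had an unadjusted edgeR p under 0.05, as did 12.1% of all genes there. Their median change was 1.03, with Tagln at 608, 328, 894 and 941 CPM (0.91 ± 0.24, edgeR adjusted p 0.123), and none passed after adjustment. The smooth muscle list includes Myh11, which is also a marker of the mural gate.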

How the data were processed

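Cells of 4 whole-nose libraries, 2 control and 2 mutant, were counted by the authors as raw UMI counts per gene and cell. The deposited counts name cellranger 8.0.1 per the file headers, whereas the submitters' processing notes name Cell Ranger 4, Seurat 4.3.0 and mm10, and this was not settled. A cell was retained with 500 or more genes and no more than 10% of its UMIs mitochondrial. It was gated by at least 3 markers, or by at least 2 for neuronal precursors. Doublets were kept, because Scrublet called 0 to 3 cells per library, and the highest-scored cells (0.8% per 1000 barcodes) were left out as an alternative. The class sums of the libraries entered edgeR 4.0.16 (R 4.3.3, TMM, filterByExpr, quasi-likelihood F test, Benjamini-Hochberg adjustment over all genes tested), and the code was tested on simulated data. DESeq2 1.42.0 was an alternative, with other size factors, no filter, a replicate block, stricter gates and each library left out. Shares have exact binomial 95% intervals, and shares, limits and floors (3 UMIs) cover counting error only. Thinned shares leave out cells with fewer than 2500 UMIs. Of the other pathway and vessel genes, those that passed a test and the 3 with the smallest p per class were eligible to be named, and of similar genes the 3 with the highest r. Members and lists were chosen with earlier results of these data known. The tests of basal against simple epithelium and between classes, and the immediate early genes, were added after seeing the data. Coordinates are from GENCODE M21 (GRCm38). A further sample that the protocol mentions was not analysed here. Levels within a subset of the neuronal cells are not reported here.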

Additional observations from a re-analysis of the deposited data

Results flagged for a closer look

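Epithelial Notch1 was lower in both mutant libraries, while endothelial and mesenchymal Notch1 was higher in both. The endothelial gap was small (97.1 against 97.8 CPM at its narrowest), and without cells that also passed the mesenchymal gate the groups overlapped at 104, 90.2, 100.5 and 121 CPM. The test of the difference itself, added after these values were seen, gave a log2 difference of 0.72 ± 0.30 (SE) between endothelial and epithelial cells (edgeR p 0.0310, adjusted p 0.999) and of 0.85 ± 0.23 between mesenchymal and epithelial cells (edgeR p 0.00396, adjusted p 0.806). Neither passed after adjustment over all genes.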

How the results depend on the processing

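Over 51 member changes and 503 alternatives, 413 kept direction and side of the threshold, 70 turned sign and 20 newly passed, 11 of these for Hes1. Of 117 alternatives to the 13 higher class calls 108 kept the call. The other 9 were Notch1 in mural cells (0.99 without the filter, 0.98 without doublets, 0.96 without co-gated cells, 1.00 without mutant 2) and Hey1 in epithelial cells (0.87 to 1.00), each at the 2-fold limit.

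Counts of changed genes moved most. Without the filter they were 10 over all cells, 119 in endothelial, 275 in mural, 37 in glial, 121 in neuronal, 313 in epithelial and 552 in mesenchymal cells, against 0, 5, 41, 0, 0, 0 and 0. DESeq2 called 30 over all cells, 3 in endothelial, 21 in mural, 2 in neuronal, 6 in epithelial and 49 in mesenchymal cells. Without doublets 17 were called in mural cells, and without co-gated cells 18 in endothelial cells. Leaving out 1 library gave 0 to 410 over all cells, 61 to 90 in endothelial, 66 to 272 in mural, 0 to 103 in glial, 0 to 11 in neuronal, 0 to 1259 in epithelial and 7 to 847 in mesenchymal cells. The highest counts over all cells and in mural, glial, epithelial and mesenchymal cells came without control 1. The lone library left in a group is assumed to vary like the others. Without the filter 2410 genes were higher in neuronal, 2483 in epithelial and 2074 in mesenchymal cells, against 1279, 1135 and 1085.

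The replicate number as a block gave 76 called genes in endothelial, 87 in mural and 3 in mesenchymal cells. Deviations of same-numbered libraries correlated between -0.19 and 0.11, and with 2 pairs the libraries share only a number. In neuronal cells the crossed pairing, added after seeing the data, called 0 genes.

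With DESeq2 size factors, the sign turned for Notch3 over all cells (-0.000127), Jag1 in mural cells (-0.0091) and Notch2 in glial cells (0.0027). Without the filter, the sign turned for Jag1 in mural cells (-0.050), Notch2 in glial cells (0.0037) and Notch2 in epithelial cells (0.000829). With the DESeq2 Wald test, the sign turned for Jag1 in mural cells (-0.032) and Notch3 in epithelial cells (0.011). With the replicate block, the sign turned for Jag1 in mural cells (-0.0032), Hey2 in neuronal cells (0.057) and Notch3 in epithelial cells (0.0081). With likely doublets left out, the sign turned for Notch2 in endothelial cells (0.30), Hey2 in mural cells (-0.18), Notch1 in glial cells (-0.035), Hes1 in glial cells (0.021), Notch2 in epithelial cells (0.016), Notch3 in epithelial cells (0.036) and Heyl in mesenchymal cells (-0.023). With gates of at least 4 markers, the sign turned for Notch2 in endothelial cells (0.10), Notch2 in glial cells (0.081), Notch2 in epithelial cells (0.071), Notch3 in epithelial cells (0.018) and Jag1 in mesenchymal cells (-0.0091). Without cells that also passed the mesenchymal gate, the sign turned for Notch1 in glial cells (-0.14) and Hes1 in glial cells (0.18). Log2 changes turned sign when 1 library was left out for Dll1 over all cells from -0.86 to 0.45, Hes1 in glial cells from -0.33 to 0.17, Hes1 in neuronal cells from -0.42 to 0.97, Hey2 in glial cells from -0.25 to 2.01, Hey2 in mesenchymal cells from -0.20 to 0.69, Hey2 in mural cells from -0.13 to 0.42 and Hey2 in neuronal cells from -1.03 to 1.34. The same held for Hey2 over all cells from -0.24 to 0.57, Heyl in glial cells from -0.31 to 0.096, Heyl in mesenchymal cells from -0.23 to 0.49, Jag1 in endothelial cells from -0.19 to 0.65, Jag1 in epithelial cells from -0.26 to 0.0067, Jag1 in mesenchymal cells from -0.19 to 0.23 and Jag1 in mural cells from -0.18 to 0.13. It also held for Jag1 over all cells from -0.11 to 0.16, Notch1 in glial cells from -0.069 to 0.18, Notch1 in mural cells from -0.23 to 0.40, Notch1 in neuronal cells from -0.91 to 0.63, Notch1 over all cells from -0.25 to 0.12, Notch2 in endothelial cells from -3.16 to 0.57 and Notch2 in epithelial cells from -0.084 to 0.043. Sign turned likewise for Notch2 in glial cells from -0.42 to 0.53, Notch2 in neuronal cells from -0.31 to 0.069, Notch2 over all cells from -0.38 to 0.0094, Notch3 in epithelial cells from -0.085 to 0.12, Notch3 in mesenchymal cells from -0.028 to 0.14, Notch3 in mural cells from -0.17 to 0.48 and Notch3 in neuronal cells from -0.62 to 0.62. The cause of these shifts was not tested. All 13 shares of cells with a UMI were higher without thinning, where the shallower cells were counted too. Gates of at least 4 markers, and leaving out co-gated cells, were not run for the genotype tests of mural and neuronal cells, which then had under 20 cells in a library.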

Other observations

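Skeletal muscle cells (25, 16, 12 and 9 cells), a class outside the 6 and not tested, had a higher Dll1 level than any of the 6 classes in 2 of the 4 libraries, at 13.2, 6.81, 24.4 and 0 CPM from 6, 2, 6 and 0 UMIs. Their Notch3 stood at 57.4, 54.5, 32.6 and 44.5 CPM and their Hey1 at 6.62, 23.8, 32.6 and 44.5 CPM. Macrophages had Notch2 at 115, 79.8, 100.3 and 68.8 CPM and no UMI of Dll1, Dll4 or Heyl.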
